A study of Rattus norvegicus with 2 samples.

Results

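The cells described here are epithelial cells of the rat jejunum with transcripts of the proliferation genes Mki67 and Top2a and little of the stem cell transcript Olfm4. A single-cell RNA-seq library was made from the proximal jejunum of each of 2 male Sprague-Dawley rats, aged 6 to 8 weeks, weighing 180 to 200 g and fasted overnight, with epithelium isolated from the intestine and no genetic change or drug treatment named for either animal. Each animal gave 1 library, named rat 1 and rat 2 below, and the study used them to place the cell types of the rat small intestine on their lineages. The cells were chosen by measured values: a barcode was retained with more than 200 and fewer than 5800 detected genes, more than 5000 unique molecular identifiers (UMIs, the counted transcript molecules) and at most 40% of UMIs in mitochondrial genes, and among retained barcodes those with at least 1 UMI of the epithelial adhesion gene Epcam, none of the leukocyte gene Ptprc, at least 2 UMIs of Mki67 and Top2a together, under 5 UMIs of Olfm4 per 10000 and under 2% of UMIs in the goblet genes Tff3, Zg16, Fcgbp, Clca1 and Agr2 were selected. Of 20285 barcodes in the files, 1034 met this rule, 961 of 12033 in rat 1 and 73 of 8252 in rat 2. They made up 16.6% of the 5785 retained epithelial barcodes of rat 1 (95% interval by the exact method of Clopper and Pearson, 15.7 to 17.6%) and 4.61% of the 1584 of rat 2 (3.63 to 5.76%), and these intervals cover counting error only.

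Transit-amplifying cells are the dividing daughters of intestinal stem cells. They occupy the crypt above the stem cell zone, pass through several rounds of division while they move towards the villus, and leave the cell cycle as they take on an absorptive or a secretory fate. Mki67, a coat protein of mitotic chromosomes, and Top2a, the topoisomerase that untangles replicated DNA, are made chiefly in S, G2 and M phase, as are the chromatin protein Hmgb2 and the microtubule-destabilizing protein Stmn1. Olfm4 is a secreted glycoprotein that marks the stem cells at the crypt base.

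The libraries differed in depth and quality. The selected cells had a median of 15167 UMIs and 3253 genes in rat 1 and 27107 UMIs and 3746 genes in rat 2, with a median mitochondrial share of 12.1% and 19.7%. Summed over the cells this gave 16980679 and 1802908 UMIs, so that a gene with no UMI could still have been present at up to 0.177 CPM in rat 1 and 1.66 CPM in rat 2 (CPM, UMIs of a gene per 1000000 UMIs summed over a group of cells; 3 counts). The libraries shared 28 barcode sequences, and 1 selected cell of each rat carried such a barcode. The doublet caller Scrublet marked 42 of the 961 and 1 of the 73 cells. Over all retained barcodes of rat 1 it marked 116 of 5988 (1.94%), a smaller share than among the selected cells. In rat 2 it marked only 2 of 2230 retained barcodes in all, too few to rely on, and no doublet was removed.

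The 1034 cells fell into 2 kinds when the other cell cycle genes were counted. The 92 measured S phase and G2/M phase genes other than Mki67 and Top2a, which the rule did not name, summed to 95.3 and 120.4 UMIs per 10000 (medians of rats 1 and 2) in cells at or above 40 per 10000, here called cycle-high, and to 13.4 and 14.1 in the rest, called cycle-low. The level of 40 was set after the values were seen, in the trough between the 2 kinds, and 65 and 5 cells lay between 30 and 50. Cycle-high cells numbered 611 of 961 in rat 1 (63.6%) but only 15 of 73 in rat 2 (20.5%). In epithelial cells with no Mki67 or Top2a UMI and the same Olfm4 and goblet limits the median was about that of cycle-low cells in rat 1 and lower in rat 2 (13.7 and 8.88 per 10000; n = 3093 and 1178). The share of UMIs in 30 enterocyte genes (digestive enzymes, lipid carriers, transporters and brush border proteins) ran the other way, with a median of 0.372% and 0.270% in cycle-high cells, 17.4% and 8.78% in cycle-low cells and 11.6% and 10.7% in the cells without Mki67 or Top2a. Among the cells without Mki67 or Top2a, 3.07% and 0.509% reached 40 per 10000. Hmgb2 is 1 of the 92 genes that divide the kinds, while Stmn1 is not and stood at 708 and 916 CPM in cycle-high, 55.0 and 10.8 CPM in cycle-low cells and 43.8 and 5.85 CPM in the cells without Mki67 or Top2a. The selected cells as a whole are therefore named below by the rule, and not as transit-amplifying cells. Because the kinds were divided on their measured values, the differences between them below are descriptions with no test, and those in cell cycle genes follow from the division. Tallies of list genes higher in cycle-high cells have no share over all genes beside them, because none was counted. CPM is a share of all UMIs, and the enterocyte genes took 14.3% and 9.42% of summed UMIs in cycle-low cells. In cycle-high cells they took 0.971% and 0.321%.

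**Figure D1:**
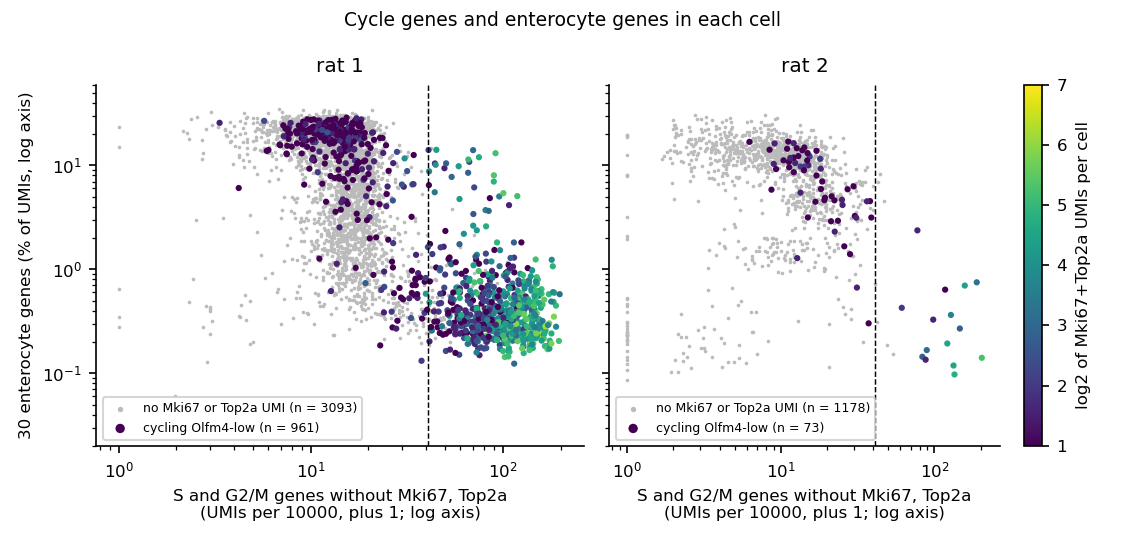
Each point is 1 of the selected cells of rat 1 (n = 961) or rat 2 (n = 73), with the UMIs per 10000 in 92 cell cycle genes on the horizontal axis and the percent of UMIs in 30 enterocyte genes on the vertical axis, both logarithmic (the horizontal values plus 1); colour gives log2 of the Mki67 and Top2a UMIs, the dashed line is at 40 per 10000 and grey points are epithelial cells without Mki67 or Top2a. The cycle-high cells lie to the lower right, with enterocyte medians of 0.372% and 0.270%, and most cycle-low cells overlie the grey points.

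The limit on Mki67 and Top2a UMIs set how many cycle-low cells were taken in. At exactly 2 UMIs, the lowest number admitted, there were 308 cells in rat 1 and 39 in rat 2, of which 24.0% and 2.56% were cycle-high. At 3 UMIs the cycle-high share was 43.2% of 125 and 15.8% of 19 cells, and at 4 to 6 UMIs 68.5% of 130 and 20% of 5. From 7 UMIs upwards nearly every cell was cycle-high: 98.7% and 99.2% of the 149 and 249 cells with 7 to 15 and with 16 or more UMIs in rat 1, and all of the 5 and 5 such cells in rat 2. Just outside the limit, 960 and 152 cells held exactly 1 UMI, and 10.1% and 0% of them reached 40 per 10000. In rat 1 the highest Olfm4 level inside was 4.75 and the lowest outside 5.17 per 10000, and 172 of the 961 cells and 1 of the 73 held any Olfm4 UMI. The goblet share reached 1.99% inside in rat 1 and began at 2.02% outside, while in rat 2 it reached 0.716% inside and began at 3.40% outside. The largest number of genes inside was 5781 and 5378, and 18 and 4 cells that met every other condition were over the gene limit.

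Hmgb2 was higher in cells that held more Mki67 and Top2a UMIs. Over cells with 0, 1, 2, 3, 4 to 6, 7 to 15 and 16 or more of those UMIs, Hmgb2 stood at 91.4, 202, 423, 578, 959.8, 1737 and 2157 CPM in rat 1 and at 28.2, 25.2, 63.6, 263, 265, 1929 and 3102 CPM in rat 2. Stmn1 followed a like course, less evenly in rat 2, at 43.8, 81.7, 147, 252, 443, 750.2 and 709 CPM in rat 1 and 5.85, 6.71, 13.6, 54.9, 25.2, 1017 and 1119.6 CPM in rat 2. Both genes were thus 423 and 147 CPM in the rat 1 cells at the limit of 2 UMIs, between the cells with none and those with many. In rat 2 the largest step in both genes lay between 4 to 6 and 7 to 15 UMIs, with 5 cells in each of those bins. Alpi, the intestinal alkaline phosphatase of the enterocyte brush border, went from 537 and 2045 CPM in cells with 0 UMIs to 38.9 and 0 CPM in cells with 16 or more.

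**Figure D2:**
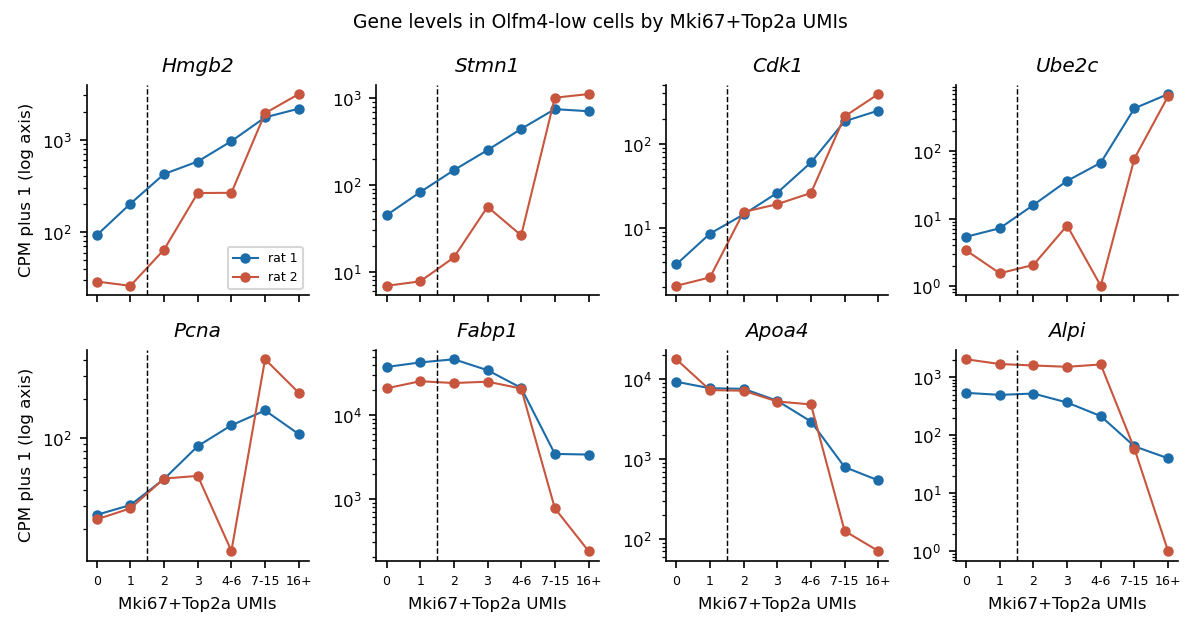
Level in CPM plus 1 (logarithmic axis) of 5 cell cycle genes and the enterocyte genes Fabp1, Apoa4 and Alpi in epithelial cells grouped by their Mki67 plus Top2a UMIs, separately for rat 1 and rat 2; each point is the UMIs summed over the cells of the group, so no error bar is drawn, and the dashed line is the rule's limit of 2 UMIs. Hmgb2 climbs from 91.4 to 2157 CPM in rat 1 and from 28.2 to 3102 CPM in rat 2, while the 3 enterocyte genes are lowest at 7 or more UMIs in both rats.

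Within the rule's own genes, the balance between Mki67 and Top2a differed between the kinds. Cycle-high cells held 5253 Mki67 and 4283 Top2a UMIs in rat 1, a ratio of 1.23, and 107 and 88 in rat 2, a ratio of 1.22. Cycle-low cells held 838 and 81 in rat 1, a ratio of 10.3, and 138 and 2 in rat 2, a ratio of 69. Cells with a single UMI, outside the rule, had ratios of 10.6 and 24.3, above the cycle-high value in both rats. No Top2a UMI at all was found in 86% and 96.6% of cycle-low cells and in 25.4% and 26.7% of cycle-high cells. Most cycle-low cells therefore entered on Mki67 UMIs alone, and what put those UMIs there was not tested. The limit of 2 counts UMIs with no correction for depth. Median UMIs per cell were 13889.5 and 29518.5 in cycle-low cells, 15968 and 24156 in cycle-high cells and 11562 and 18739 in cells without Mki67 or Top2a.

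The promoters of the 4 marker genes are shown because Mki67, Top2a and Hmgb2, which peak late in the cycle, share letters that Stmn1 holds in part. CCAAT boxes are bound by NF-Y, the cell cycle genes homology region (CHR; TTTGAA or TTCGAA) by the DREAM and MMB complexes that hold late cell cycle genes silent or switch them on, and E2F sites (TTCGCGC or TTGGCGC) by the E2F factors of the G1/S transition. Each sequence runs 5′ to 3′ over 300 bases, 250 before and 50 after the RefSeq start of the gene in the GRCr8 assembly, while the counts were made on the older rn6 assembly; capitals mark matches to these letters on either strand. The windows were chr1:199952544-199952843 on the minus strand, chr10:84473044-84473343 on the minus strand, chr16:37723901-37724200 on the minus strand and chr5:151964929-151965228 on the plus strand.
Mki67: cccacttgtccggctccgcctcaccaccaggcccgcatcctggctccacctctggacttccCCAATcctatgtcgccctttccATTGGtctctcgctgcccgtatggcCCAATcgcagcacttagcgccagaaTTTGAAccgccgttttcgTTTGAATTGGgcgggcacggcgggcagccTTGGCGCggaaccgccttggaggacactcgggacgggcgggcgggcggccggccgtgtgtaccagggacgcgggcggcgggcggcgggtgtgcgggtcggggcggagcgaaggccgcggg
Top2a: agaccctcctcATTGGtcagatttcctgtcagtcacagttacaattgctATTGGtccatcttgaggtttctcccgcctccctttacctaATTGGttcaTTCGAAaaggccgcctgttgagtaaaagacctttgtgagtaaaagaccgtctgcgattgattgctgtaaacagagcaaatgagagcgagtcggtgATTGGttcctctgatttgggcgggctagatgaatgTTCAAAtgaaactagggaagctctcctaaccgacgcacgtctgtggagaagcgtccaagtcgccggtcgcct
Hmgb2: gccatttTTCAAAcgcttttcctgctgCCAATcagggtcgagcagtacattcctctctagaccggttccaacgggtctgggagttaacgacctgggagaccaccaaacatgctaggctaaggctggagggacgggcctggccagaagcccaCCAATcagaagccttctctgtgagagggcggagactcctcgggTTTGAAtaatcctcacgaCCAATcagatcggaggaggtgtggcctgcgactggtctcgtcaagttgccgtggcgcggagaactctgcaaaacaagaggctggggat
Stmn1: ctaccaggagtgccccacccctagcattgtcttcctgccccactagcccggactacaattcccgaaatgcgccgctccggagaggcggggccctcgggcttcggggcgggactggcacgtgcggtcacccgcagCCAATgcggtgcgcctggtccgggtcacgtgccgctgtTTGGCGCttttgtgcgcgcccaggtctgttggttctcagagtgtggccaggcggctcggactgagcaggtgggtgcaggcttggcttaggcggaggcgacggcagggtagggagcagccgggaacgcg
The Mki67 window held 4 CCAAT, 2 CHR and 1 E2F match, with 1 CHR and 1 CCAAT match overlapping. The Top2a window held 4 CCAAT and 2 CHR matches, the Hmgb2 window 3 and 2, and neither held an E2F match. The Stmn1 window held 1 CCAAT and 1 E2F match and no CHR match. Of all 27457 rat promoters in the table, 37.7% held CCAAT, 19.6% a CHR, 3.83% an E2F match and 7.9% both CCAAT and a CHR. Of the 49 G2/M phase genes of 56 that matched the table, 57.1% held both CCAAT and a CHR and 10.2% an E2F match. Of the 32 S phase genes of 44 that matched, 9.38% held both and 37.5% an E2F match, and of 21 enterocyte genes of 30, 14.3% and 0%. These shares describe letters in a fixed window and not binding.

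Cycle-high cells carried the replication machinery. Of the 43 S phase genes in the files, 42 in rat 1 and 41 in rat 2 were higher in cycle-high than in cycle-low cells, a split the 40 per 10000 limit partly fixes because it sums these genes. Pcna, the sliding clamp of DNA polymerase, stood at 143 and 285 CPM in the cycle-high cells of rats 1 and 2 against 19.9 and 35.7 CPM in the cycle-low cells. Prim1, the primase subunit that starts each DNA strand, stood at 227 and 194 against 17.4 and 4.04 CPM in the same order. The replicative helicase subunit Mcm6 stood at 84.5 and 132 against 7.63 and 4.04 CPM, and Nasp, a chaperone of newly made histones, at 187 and 251 against 23.4 and 4.72 CPM. The nucleotide supply, which the limit did not use apart from genes shared with the S phase list, moved with them: 22 of 23 genes were higher in the cycle-high cells of each rat, among them Dut, which removes dUTP (254 and 289 against 14.6 and 4.72 CPM), and Impdh2, the rate-limiting enzyme of guanine nucleotide synthesis (402 and 508 against 66.3 and 10.8 CPM).

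The mitotic genes went the same way. Of 51 G2/M phase genes, 49 and 48 were higher in cycle-high cells. Cdk1, the kinase that drives entry into mitosis, stood at 190.4 and 276 CPM in the cycle-high cells of rats 1 and 2 against 4.15 and 10.8 CPM in the cycle-low cells. Ube2c, the ubiquitin-conjugating enzyme of the anaphase-promoting complex, stood at 484 and 332 against 9.45 and 0 CPM, and the kinetochore protein Cenpf at 304 and 539 against 13.1 and 0.674 CPM. Ube2c in the cycle-low cells of rat 2, and Ccna2 there, had no UMI. Gas2l3, a protein of the midbody, was the exception in rat 1, with 11.1 CPM in cycle-high and 20.7 CPM in cycle-low cells, and ran the other way in rat 2, with 28.2 and 13.5 CPM.

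Cyclins and growth genes followed, and cell cycle inhibitors divided. Ccnd1, the cyclin that carries cells through G1, stood at 228 and 319.9 CPM in the cycle-high cells of rats 1 and 2 against 43.4 and 14.2 CPM in the cycle-low cells, and the mitotic cyclin Ccnb1 at 149 and 166 against 8.62 and 0.674 CPM. Cdk4, the partner kinase of Ccnd1, stood at 31.9 and 75.3 against 5.47 and 5.39 CPM, and Myc at 36.3 and 47.0 against 4.48 and 0.674 CPM. Cdkn2b (p15, an inhibitor of Cdk4 and Cdk6) was lower in cycle-high cells, at 36.3 and 31.4 against 77.4 and 78.2 CPM. Cdkn1c (p57) was also lower there, at 1.64 and 12.5 against 7.46 and 127 CPM, and Cdkn1a (p21) stood at 31.1 and 9.41 against 29.3 and 75.5 CPM, apart only in rat 2. Cdkn3, a phosphatase of mitotic cells, and Cdkn2c (p18) were instead higher in cycle-high cells, at 203 and 238 against 30.2 and 2.02 CPM and 16.3 and 25.1 against 0.663 and 2.02 CPM.

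All 21 genes of the nucleolus and ribosome assembly, which neither the rule nor the 40 per 10000 limit used, were higher in cycle-high than in cycle-low cells of both rats. How many of all genes were higher there was not counted, so this tally has no background. The nucleolar proteins Ncl and Npm1 stood at 529.8 and 972 against 69.3 and 69.4 CPM and at 1455 and 1389 against 227 and 64.7 CPM. Genes of ribosomal proteins took 18.1% and 14.8% of UMIs in cycle-high cells, 5.31% and 2.24% in cycle-low cells and 6.76% and 1.80% in cells without Mki67 or Top2a. Of the 19 chromatin and tubulin genes, 17 and 16 were higher, among them the beta-tubulin Tubb5 (507 and 872 against 22.7 and 28.3 CPM) and Ran, the GTPase of nuclear transport and spindle assembly (1114 and 1292 against 174 and 84.9 CPM). The cycle-high cells thus combined genes of DNA replication, mitosis and ribosome production with few enterocyte transcripts.

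Among cycle-high cells, more were called G2/M than S. After thinning each cell to 5000 UMIs, the S phase list gave a median of 8 and 8 UMIs per cell and the G2/M list without Mki67 and Top2a 37 and 54. Phase calls from both full lists, Mki67 and Top2a included, placed 24.5% and 26.7% in S and 75.1% and 73.3% in G2/M. Both genes are on the G2/M list and selected the cells, so the balance follows in part from the rule, and the groups chosen by the same limit had 63.5% and 40% (Olfm4-high) and 64.8% and 69.2% (goblet-lineage) in G2/M. In the cycle-low cells 19.1% and 51.7% were called S or G2/M, while 11.6% and 34.2% of cells without Mki67 or Top2a received the same calls, so such calls have a high background and more so in rat 2. Over all selected cells the share called S or G2/M was 70.3% and 61.6%. At the same thinned depth, 99.5% and 100% of cycle-high cells held an Hmgb2 UMI, against 22.3% and 22.4% of cycle-low cells and 22.8% and 13.1% of cells without Mki67 or Top2a; without thinning the shares were 100% and 100%, 38.9% and 50%, and 39.6% and 33.8%. In rat 1 the cycle-low share was close to that of cells without Mki67 or Top2a. Hmgb2 is among the genes summed for the limit of 40 per 10000, which capped the cycle-low cells only. The Hmgb2 shares therefore cannot show whether cycle-low cells in rat 1 differ from cells without Mki67 or Top2a.

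**Figure D3:**
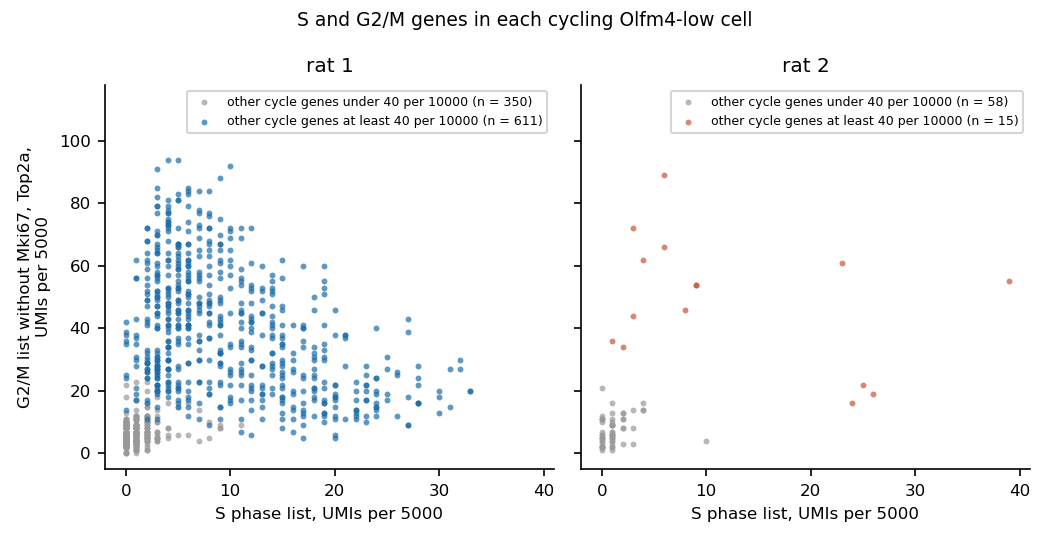
UMIs of the S phase list (horizontal axis) and of the G2/M phase list without Mki67 and Top2a (vertical axis) per selected cell of rats 1 and 2 after thinning to 5000 UMIs, coloured as cycle-high or cycle-low. Cycle-high cells spread along both axes with medians of 8 S and 37 G2/M UMIs in rat 1, and cycle-low cells gather near the origin.

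Summed over cells, the cycle-low cells had the profile of absorptive cells. In rat 2, 19 of the 58 (32.8%) held at least 2 UMIs of the tuft cell genes Trpm5, Dclk1 and Avil, described below. None of the 30 enterocyte genes was higher in cycle-high cells in either rat. Fabp1, the liver-type fatty acid binding protein, stood at 3187 and 935 CPM in the cycle-high cells of rats 1 and 2 against 53062 and 25088 CPM in the cycle-low cells. Apoa4, a chylomicron apolipoprotein, stood at 549.8 and 125 against 8484 and 6722 CPM, Alpi at 41.5 and 22.0 against 582 and 1656 CPM, and Krt20, the keratin of differentiated villus cells, at 356 and 405 against 2782 and 2246 CPM. Creb3l3, a transcription factor of lipid-handling enterocytes, had the same pattern, at 111 and 28.2 against 1367 and 1201 CPM. Enterocyte genes were 6 of the 10 genes that spread most among the selected cells of rat 1: in thinned counts the ratio of variance to mean was 265 for Fabp1, 169 for Apoa1, 106 for Fabp6, 69.0 for Apoa4, 65.2 for Rbp2 and 49.5 for Fabp2, against 1.13 for the median gene. Fabp6, the bile acid binding protein best known from the ileum, had 9394 UMIs in the cells of rat 1 and 0 in those of rat 2. The ratio was highest for LOC103694857 (496) and the hemoglobin gene Hba-a1 (368), and the hemoglobin genes Hba-a2 (189) and Hbb (69.5) completed the 10. By summed UMIs, mitochondrial and ribosomal protein genes aside, Fabp1 led the selected cells as a whole (20902 and 20817 CPM), with the ferritin gene Fth1, Apoa1 and Rbp2 in the first 5. In the cycle-high cells alone Tpt1, Fth1 and Krt8 were in the first 5, and no enterocyte list gene was among the first 15.

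In rat 2 part of the selected cells carried tuft cell genes. Tuft cells are rare chemosensory epithelial cells marked by the taste channel Trpm5, the kinase Dclk1 and the actin-bundling protein Avil. At least 2 UMIs of these 3 genes together were found in 21 of 73 selected cells of rat 2 (28.8%) and in 9 of 961 of rat 1 (0.937%), and 19 of the 21 were cycle-low. In rat 2 the same limit was met by 94 of 1178 cells without Mki67 or Top2a (7.98%), 28 of 152 cells with a single UMI (18.4%) and 6 of 13 goblet-lineage cells (46.2%). These shares were not matched for depth, which differed between the groups. The 21 cells held Avil at 1472 CPM against 2.53 CPM in the other 52, and Dclk1 at 862 against 0 CPM, values that the choice of these cells fixed. Genes that chose no cell differed too. Alox5ap, needed for leukotriene synthesis, stood at 1181 against 0 CPM, the transcription factor Pou2f3 at 224 against 0.633 CPM, Spib at 938 against 0 CPM and the keratin Krt18 at 9503 against 127 CPM. Their cell cycle genes had a median of 26.2 per 10000, against 13.9 in the other 52 cells. They held 56 Mki67 and 14 Top2a UMIs. Sox9, a transcription factor of crypt and tuft cells, was at 480.3 against 12.0 CPM, so that the Sox9 level over all selected cells of rat 2 (69.9 CPM) came mainly from these 21 cells. Values of rat 2 include these 21 cells unless stated otherwise, and some depend on them. Alpi stood at 242 CPM in the 21 cells and 1525 CPM in the other 52, Stmn1 at 85.3 and 183 CPM and Hmgb2 at 637 and 458 CPM.

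Stem cell genes were present at low levels and mainly in cycle-high cells. Of the 19 stem and Wnt target genes in the files, 18 in rat 1 and 13 in rat 2 were higher in cycle-high than in cycle-low cells. Lgr5, the receptor that defines crypt base stem cells, had 10 UMIs over the 961 cells of rat 1 and 2 over the 73 of rat 2. Slc12a2, a chloride cotransporter of crypt cells, stood at 215 and 232 CPM in the cycle-high cells of rats 1 and 2 against 26.7 and 8.76 CPM in the cycle-low cells. Smoc2, a secreted stem cell marker, stood at 79.8 and 75.3 against 8.62 and 4.04 CPM, Axin2, a feedback target of Wnt, at 25.8 and 34.5 against 10.3 and 14.8 CPM, and Ephb2, the receptor that sorts crypt cells by position, at 24.8 and 40.8 against 4.97 and 0.674 CPM.

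Notch1 and its responses Hes1 and Nrarp were likewise higher in the cycle-high cells, and the ligand Dll1 was not. Notch1 stood at 28.6 and 84.7 CPM in the cycle-high cells of rats 1 and 2 against 3.15 and 1.35 CPM in the cycle-low cells. Its targets Hes1, the repressor of secretory fate, and Nrarp, a feedback inhibitor, stood at 79.8 and 100.4 against 36.0 and 16.8 CPM and at 55.5 and 43.9 against 7.13 and 1.35 CPM. The ligand Jag1 stood at 31.1 and 34.5 against 5.14 and 8.76 CPM. Dll1, the ligand of secretory precursors, had 28 UMIs in 611 cycle-high and 37 in 350 cycle-low cells of rat 1, and 0 and 12 in the 15 and 58 of rat 2. Dll4 had 59 and 4 UMIs in all selected cells, Hey1 had none in either rat, and Atoh1, the factor that starts the secretory lineage, stood at 2.59 and 9.43 CPM, with 16 UMIs in the cycle-high cells of rat 2 that came from 2 cells.

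Transcription factors of intestinal identity were found in both kinds. Of the 18 in the list, 12 in rat 1 and 13 in rat 2 were higher in cycle-high cells, but their sum was lower there, at 1551 and 1954 against 2543 and 2599.6 CPM, with Creb3l3 among them. Pdx1 was at 0 in the cycle-low cells of rat 1 and Isx in the cycle-high cells of rat 2. Cdx2, the master factor of intestinal epithelium, stood at 359 and 282 CPM in the cycle-high cells of rats 1 and 2 against 200.5 and 172 CPM in the cycle-low cells. Hnf4a, a factor of absorptive gene expression, stood at 153 and 198 against 124 and 146 CPM, Klf5, a factor of proliferating crypt cells, at 285 and 395 against 169 and 146 CPM, and Elf3 at 322 and 436 against 134 and 236 CPM. These 4 genes differed less between the kinds than Hmgb2 or Fabp1 did. The rats differed in regional factors: Pdx1, which is made in the duodenum and proximal gut, summed over the selected cells to 0.118 CPM (rat 1) and 32.7 CPM (rat 2), and Onecut2 to 0.353 and 44.9 CPM. With Fabp6, these were differences between 2 animals, 1 library each, and animal and library cannot be told apart.

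Markers of other cell types were present unevenly. All 10 T cell genes in the list summed to 141 CPM among the 961 cells (rat 1) and 226 CPM among the 73 (rat 2), compared with 92.0 and 81.5 CPM in cells without Mki67 or Top2a, with Cd2 at 0 in the selected cells of both rats. Cd3g, at 79.3 and 58.2 CPM, was found mostly without its partners: 455 of 961 and 28 of 73 cells held a Cd3g UMI, and 23 and 3 a Cd3d or Cd3e UMI. The cycle-high cells of rat 2 held 88 Gzma UMIs, of which 60 were in 1 cell, and 7 Cd3e UMIs, all in 1 cell. The 5 pan-leukocyte genes summed to 9.30 and 131 CPM, where Rac2 of rat 2 moved with the tuft genes (866 CPM in the 21 cells and 4.43 CPM in the other 52). The 5 hemoglobin and erythroid genes in the files summed to 244 and 37.6 CPM in cycle-high and 860.2 and 1757 CPM in cycle-low cells. In cells without Mki67 or Top2a they summed to 1879 and 13800.5 CPM. In rat 2, 1424 of the 1482 Hba-a1 UMIs were in 1 cell. Hba-a1 stood at 6446 CPM in the 21 cells with tuft genes and 29.1 CPM in the other 52. The 4 stromal genes in the files were at 0 apart from Col3a1 in rat 1, and the 4 B cell genes at 0 in rat 1. The part of free RNA, doublets and other cells in these values was not tested.

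The selected cells were then compared with 3 other groups over summed counts, 1 sum per rat and group, with edgeR's quasi-likelihood test on 9815 genes and Benjamini-Hochberg adjustment. All 8 sums were in 1 model without pairing by rat, and rat as a block was an alternative. With 2 animals, the p-values measure the spread between these 2 rats, estimated over all 4 groups together. The groups were cycling cells at or above the Olfm4 limit (208 and 5 cells in rats 1 and 2), cycling goblet-lineage cells (at least 2% goblet gene UMIs; 142 and 13) and early enterocytes, defined as cells with no Mki67 or Top2a UMI in the lowest tertile of 9 villus genes (1012 and 314). All differences below are log2(selected cells over the other group). The mix of kinds differed between the rats, 63.6% cycle-high in rat 1 and 20.5% in rat 2, and other groups had their own: 93.3% and 80% of Olfm4-high, 78.9% and 92.3% of goblet-lineage and 9.19% and 0.637% of early enterocytes reached 40 per 10000. Ribosomal protein genes took 13.6% and 4.46% of UMIs in the selected cells, 20.6% and 17.3% in Olfm4-high cells, 17.9% and 14.3% in goblet-lineage cells and 14.2% and 3.47% in early enterocytes.

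Against cycling Olfm4-high cells, no gene passed the test. The groups also differed in their share of cycle-high cells, given above. By edgeR's quasi-likelihood test 0 of 9815 genes (0%) had an adjusted p under 0.05, with 1298 genes at an unadjusted p under 0.05, and DESeq2 called 322, of which 294 were higher and 28 lower. With rat as a block 3 genes were called (0.0306%): Olfm4, which the rule used, and the Paneth cell defensins Defa8 and Defa9, all lower in the fit, although Defa8 had no UMI in either group of rat 2. Stem cell genes had the lower values. The Olfm4-high cells were chosen by Olfm4, itself a stem cell transcript, so genes that go with Olfm4 had to differ. Ascl2, the transcription factor of stem cell identity, stood at 2.24 against 82.3 CPM in rat 1 and 7.77 against 98.1 CPM in rat 2 (log2 difference -3.91, SE 0.93, adjusted p = 0.260). Slc12a2 stood at 148 against 605 CPM in rat 1 and 48.3 against 846 CPM in rat 2 (log2 difference -2.51, SE 0.80, adjusted p = 0.260), and Cd44, a hyaluronan receptor and Wnt target, at 7.36 against 65.1 CPM in rat 1 and 6.10 against 135 CPM in rat 2 (log2 difference -3.36, SE 0.57, adjusted p = 0.260). These genes were picked from the stem and Wnt list, and in rat 2 their Olfm4-high values came from 5 cells with 81550 UMIs. In all, 13 of 14 tested stem and Wnt genes were lower in both rats, with a median of -2.13, where 29.1% of all genes tested were lower and 40.9% higher in both rats, with a median of 0.04.

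Cell cycle and growth genes were lower on the whole, and enterocyte genes higher. Of the S phase genes 33 of 42 were lower in both rats (median -1.11), of the G2/M genes 36 of 48 (median -0.61), of the nucleotide synthesis genes 19 of 23 (median -1.11) and of the nucleolar genes 21 of 21 (median -1.04). Hmgb2 stood at 1284 against 1689 CPM in rat 1 and 479.8 against 2011 CPM in rat 2 (log2 difference -0.71, SE 0.75, adjusted p = 0.703). All 30 of 30 enterocyte genes were higher in both rats, with a median of 3.71, 2.74 in rat 1 and 6.01 in rat 2. Fabp1 stood at 20902 against 2812 CPM in rat 1 and 20817 against 233 CPM in rat 2 (log2 difference 4.05, SE 1.57, adjusted p = 0.321). None of these list genes passed the test. Cycle-low cells, 36.4% and 79.5% of the selected cells, had lower cycle and growth genes and higher enterocyte genes than cycle-high cells, and their part in these differences was not tested. Of the 30 enterocyte genes, 18 in rat 1 and 14 in rat 2 were lowest in Olfm4-high, higher in cycle-high and highest in cycle-low cells, and Alpi and Apoa4 in rat 2 were among those that were not. Krt20 had this order in both rats, at 215 and 12.3 CPM in Olfm4-high, 356 and 405 CPM in cycle-high and 2782 and 2246 CPM in cycle-low cells. Cdkn2b had the same order in rat 1, at 8.60, 36.3 and 77.4 CPM, and stood at 0, 31.4 and 78.2 CPM in rat 2. With 81550 UMIs in the Olfm4-high cells of rat 2, that 0 cannot be told from the cycle-high level. Of the 19 stem and Wnt genes, 17 in rat 1 and 10 in rat 2 had the order opposite to that of Krt20. Among them was Slc12a2 at 605 and 846, 215 and 232, and 26.7 and 8.76 CPM. The share of all genes in either order was not counted. The 5 Olfm4-high cells of rat 2 limit all of these values, and the Krt20 level of 12.3 CPM there is near the lowest they can show.

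Against cycling goblet-lineage cells, 42 genes passed the test and all were lower in the selected cells (0.428% of 9815; 1300 at an unadjusted p under 0.05), including Zg16, which the rule used. The goblet-lineage cells were chosen by their goblet transcripts, so genes that go with those transcripts had to differ, and 12 of the 42 had no UMI in the selected cells of rat 2. With rat as a block 129 were called (1.31%), 20 higher and 109 lower, and DESeq2 called 402, of which 277 were higher and 125 lower, so the direction of the calls depends on the test. Without the cells that held at least 2 tuft gene UMIs 66 genes were called, 65 of them lower, and without any cell with a Cd3d, Cd3e or Cd3g UMI 5 were called, all lower. The 10 largest differences ran from -6.19 to -7.87, with adjusted p of 0.0230 to 0.0430 by edgeR's quasi-likelihood test. Id4, an inhibitor of helix-loop-helix factors, stood at 2.24 against 196 CPM in rat 1 and 0 against 727 CPM in rat 2 (log2 difference -7.87, SE 1.12, adjusted p = 0.0285). Spink4, a protease inhibitor of goblet cells, stood at 7.13 against 628 CPM in rat 1 and 1.11 against 1718 CPM in rat 2. Reg4, a secreted lectin of secretory cells, stood at 1.30 against 60.2 CPM in rat 1 and 1.11 against 170.1 CPM in rat 2. Of the 10, 6 had no UMI in the selected cells of rat 2 (Id4, Klk1b3, Rasd2, Slc12a8, Lrrc26 and Pla2g10), where a level of up to 1.66 CPM could go unseen, so their fitted differences are no measure of the true fold. The other 7 were Klk1b3, a kallikrein, Rasd2, Slc12a8, Lrrc26, an auxiliary subunit of potassium channels in secretory cells, Ramp1, a co-receptor of the calcitonin gene-related peptide receptor, the secreted phospholipase Pla2g10 and the annexin Anxa5.

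Of 12 tested genes of Notch ligands and secretory fate, 2 were called, both lower, and 5 with rat as a block. Over all genes tested, 0.428% and 1.31% were called. Genes that go with the goblet transcripts that chose the goblet-lineage cells had to differ here too. Spdef, the factor of goblet and Paneth maturation, stood at 2.65 against 132 CPM in rat 1 and 1.66 against 267 CPM in rat 2 (log2 difference -6.12, SE 0.62, adjusted p = 0.0230), and Foxa3 at 4.83 against 90.0 CPM in rat 1 and 2.22 against 281 CPM in rat 2 (log2 difference -5.26, SE 0.69, adjusted p = 0.0283). Atoh1 stood at 2.59 against 145 CPM in rat 1 and 9.43 against 372 CPM in rat 2 (log2 difference -5.24, SE 0.93, adjusted p = 0.0603) and was called only with rat as a block (adjusted p = 0.0208, edgeR). Cell cycle genes had smaller differences: 29 of 42 S phase genes (median -0.69) and 30 of 48 G2/M genes (median -0.78) were lower in both rats, where 35.7% of all genes tested were lower and 38.1% higher in both. All 30 enterocyte genes were higher in both rats (median 3.97), and of these Dgat2, an enzyme of triglyceride synthesis, was called with rat as a block, at 88.7 against 17.3 CPM in rat 1 and 158 against 14.7 CPM in rat 2 (adjusted p = 0.0291, edgeR).

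Against early enterocytes, which the rule separates from the selected cells by Mki67 and Top2a, the calls and cell cycle genes follow the choice of cells and are given as a description. Mki67 alone passed edgeR's test (0.0102% of 9815; 552 genes at an unadjusted p under 0.05). With rat as a block 79 genes were called (0.805%), 76 higher (0.774%) and 3 lower, the defensins Defa8, Defa9 and Defa24, and DESeq2 called 143, all higher. With the selected cells held to the cycle-high kind 736 genes were called, 395 higher and 341 lower, and without the cells that held tuft gene UMIs 7, all higher. Of the 76, 25 were on the S phase, G2/M phase or cyclin lists and 51 were not. These lists do not hold every cell cycle gene, and the 51 included other genes of mitosis, among them Kif4a, Kif18b, Ncapg, Ncaph and Knl1. In both rats 40 of 42 S phase genes (median 1.86) and 44 of 48 G2/M genes (median 3.77) were higher, against 31.1% of all genes tested that were higher and 37% that were lower. Hmgb2 stood at 1284 against 205 CPM in rat 1 and 479.8 against 30.3 CPM in rat 2 (log2 difference 2.76, SE 0.80, adjusted p = 0.349), and Stmn1 at 476 against 85.3 CPM in rat 1 and 171 against 7.34 CPM in rat 2 (log2 difference 2.67, SE 0.89, adjusted p = 0.485), so that neither marker passed the test over these 2 rats, whose mixes of kinds differ.

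Other lists were also higher in part; Rrm1, Rrm2 and Tyms of the nucleotide list, Cdca7 of the stem list and Hmgb2 and Tubb4b of the chromatin list are on the cell cycle lists too. The nucleolar genes were higher in both rats in 20 of 21 (median 1.19), nucleotide synthesis genes in 19 of 23 (median 1.34), chromatin and tubulin genes in 16 of 17 (median 1.33), stem and Wnt genes in 12 of 14 (median 1.47) and Notch receptors and responses in 6 of 7 (median 0.71). The identity factors showed no such order, with 3 of 17 higher and 8 lower in both rats. Of 20 tested enterocyte genes, 3 were higher and 2 lower in both rats, and 15 differed between the rats. Early enterocytes were not alike in the 2 rats, with a median enterocyte share of 1.67% in rat 1 and 6.48% in rat 2. Summed, the 30 enterocyte genes took 2.11% and 6.57% of their UMIs, and 5.72% and 7.81% in the selected cells. Outside the lists, Tm4sf4, a tetraspanin-like membrane protein, stood at 109 against 12.8 CPM in rat 1 and 316 against 18.9 CPM in rat 2 (log2 difference 3.50, SE 0.66, adjusted p = 0.123; 0.0446 with rat as a block, edgeR). Cdkn2b was lower than in early enterocytes, at 50.9 against 119 CPM in rat 1 and 69.9 against 103 CPM in rat 2, and lower still in the cycle-high cells, at 36.3 and 31.4 CPM.

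**Figure D4:**
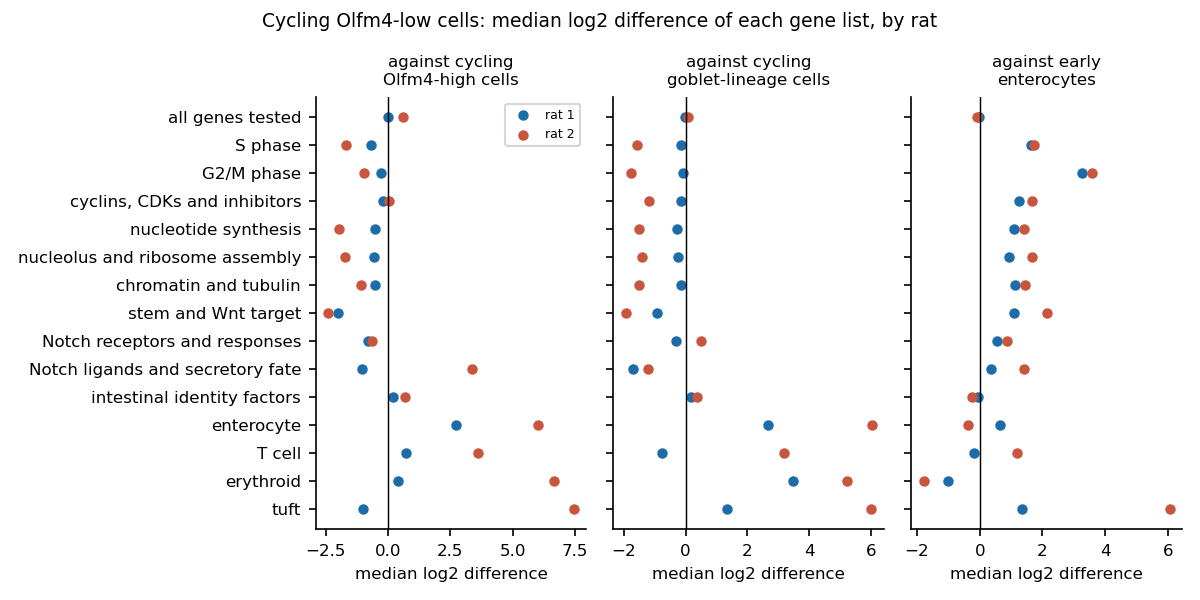
Median log2 difference over the genes of each list between the selected cells and each of the 3 other groups, with 1 point for rat 1 and 1 for rat 2 and all 9815 tested genes at the top for reference; each point is 1 animal, so no error bar is drawn. Enterocyte genes sit at 2.74 and 6.01 against Olfm4-high and at 2.65 and 6.02 against goblet-lineage cells, and G2/M genes at 3.27 and 3.58 against early enterocytes.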

How the data were processed

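Single-cell RNA-seq was measured in 1 library from each of 2 rats. The authors deposited filtered matrices of UMI counts, made with Cell Ranger, whose file headers give version 3.1.0 for rat 1 and 5.0.1 for rat 2, on the rn6 assembly; both versions and all filters by the authors precede the values used here, and no cell annotation was used. The selected cells and gene lists were chosen with earlier results of these data known. Named genes were the rule's genes and markers, the 10 largest called differences in each direction with at least 50 CPM in a compared group and the same sign in both rats, the list genes, the 10 most variable and the 15 highest. Counts were summed per rat and group (8 sums, 1 model) and tested with edgeR 4.0.16 (R 4.3.3; TMM, filterByExpr, quasi-likelihood, Benjamini-Hochberg, threshold 0.05). Groups of fewer than 5 cells in a rat gave no test, but their sums, where not empty, stayed in the model. The groups come from the same 2 rats, so rat is a pairing: differences between the rats correlated at 0.063, 0.075 and 0.712 across 9815 genes between the selected cells and the Olfm4-high, goblet-lineage and early enterocyte cells. DESeq2 1.42.0, rat as a block, other limits and leaving out each rat were the alternatives. Counts thinned to 5000 UMIs were used for phase calls, S and G2/M list UMIs per cell, variance-to-mean ratios and Hmgb2 shares, unless given without thinning. All other shares of cells, among them those of selected, cycle-high and tuft gene cells and of cells without Top2a, used unthinned counts. The software was scanpy 1.11.5 in Python 3.11.15. Scripts were tested on simulated data. Promoters came from RefSeq (GRCr8).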

Additional observations from a re-analysis of the deposited data

How the results depend on the processing

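With 73 cells in rat 2, 15 of them cycle-high, and 5 Olfm4-high cells there, rat 2 limits every comparison. Called genes against Olfm4-high, goblet-lineage and early enterocyte cells numbered 0, 42 and 1 by edgeR's quasi-likelihood test; 725, 833 and 359 with no filter on low counts (654 and 71, 643 and 190, and 346 and 13 higher and lower); 3, 129 and 79 with rat as a replicate block; and 322, 402 and 143 by DESeq2. The median log2 difference over all genes against Olfm4-high cells was 0.04 by edgeR and -0.22 by DESeq2, each over its own genes. Against goblet-lineage cells the count was 66 under a limit of 20% mitochondrial UMIs and 66 without cells with tuft genes, and 5 without cells with Cd3d, Cd3e or Cd3g. Against early enterocytes it was 125 under the 20% limit, 0 without cells with Cd3d, Cd3e or Cd3g, 182 with at least 4 Mki67 and Top2a UMIs, 32 with the lower 50% of enterocytes, 7 without cells with tuft genes and 736 with cycle-high cells only. The tuft, cycle-high and Cd3d/Cd3e settings were chosen after the data were seen. Under the 20% limit, without Cd3d, Cd3e or Cd3g, with at least 4 UMIs and with cycle-high cells only, rat 2 had 3, 0, 3 and 4 Olfm4-high cells and that comparison was not run. The sums of these few cells stayed in the models behind the other counts, as did 2 Olfm4-high cells of rat 1 without Cd3d, Cd3e or Cd3g. Their part in the changed counts was not tested. Leaving out a rat leaves no residual degrees of freedom, so no count was made; the differences of the 10 named goblet-comparison genes kept their sign in each rat. Of those genes 4 lost the call with no upper limit on genes and 7 without cells with Cd3d, Cd3e or Cd3g. The share of selected cells was 12.1% in rat 1 and 3.35% in rat 2 without cells with Cd3d, Cd3e or Cd3g, 9.13% and 0.947% with at least 4 UMIs, 10.6% and 0.947% for cycle-high cells only, and 6.15% in rat 2 under the 20% limit. The share called S or G2/M was 94.9% and 100% with at least 4 UMIs, and 42.5% in rat 2 without thinning. The cause of these changes was not tested. In the settings not named here the counts of called genes stayed within 1.5 times those of the edgeR test.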

Other observations

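Hormone transcripts were found in the selected cells of rat 2. Sct, the secretin gene, stood at 2164 CPM in the 21 cells with tuft genes and 13.9 CPM in the other 52, and Cck at 696 and 2.53 CPM. In the 9 such cells of rat 1, Sct stood at 86.9 and Cck at 65.2 CPM. Neurog3, the factor that starts the enteroendocrine lineage, had no UMI in the selected cells of either rat.

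Paneth genes were low in the selected cells. The 7 Paneth genes in the files summed to 99.8 and 44.9 CPM in the selected cells of rats 1 and 2, to 5058 and 110.4 CPM in Olfm4-high cells, to 5349.6 and 6351 CPM in goblet-lineage cells and to 2078 and 13.6 CPM in early enterocytes. Cd3g stood at 79.3 and 58.2 CPM in the selected cells and at 439.7 and 429 CPM in Olfm4-high cells, with 112 and 44.0 CPM in goblet-lineage cells. The 3 CHE genes (Cftr, Best4, Otop2; CHE, CFTR high expresser) summed to 45.1 and 52.1 CPM, with Best4 and Otop2 at 0 in rat 2. The 7 goblet genes summed to 824 and 311 CPM, a level that the rule limits, and the 4 myeloid genes to 7.13 and 20.0 CPM.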
